A study of Mus musculus with 2 samples.

Results

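The 6 genes described here encode the contents and membrane of cytotoxic granules: the granule proteases granzyme A (Gzma), granzyme B (Gzmb), granzyme K (Gzmk) and granzyme M (Gzmm), the pore-forming protein perforin (Prf1) and the granule membrane protein Nkg7. They were taken by symbol from the 28692 genes of the deposited count tables, and all 6 were found. Their measured values played no part in that choice, but earlier results of these data were known when it was made. The data are 2 droplet single-cell RNA libraries of tissue-resident CD45+ leukocytes from adipose tissue of adult wild-type C57BL/6 mice, 1 library from chow-fed controls and 1 from mice fed a ketogenic diet for 1 week. The resident compartment was told from blood cells by a label given intravenously. The number, sex and exact age of the mice behind each library are not given in the sources used here.

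Cytotoxic granules are secretory lysosomes of natural killer (NK) cells and killer T cells. On contact with a target the granules fuse with the cell membrane, perforin opens a path into the target, and granzymes cleave proteins there. Granzyme B cuts after aspartate and is known for starting apoptosis, granzymes A and K cut after basic residues, granzyme M cuts after methionine or leucine, and Nkg7 is known to promote granule release. In adipose tissue, NK cells and CD8 T cells are the usual bearers of such granules, and some gamma-delta T cells and regulatory T cells (Treg) can carry them too.

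In the GENCODE annotation of GRCm38, Gzma lies on the minus strand at chr13:113093825-113100981 and its neighbour Gzmk on the same strand at chr13:113171608-113225908, with 70.6 kb between them. Gzmb lies on the minus strand at chr14:56258838-56262260, and Gzmc, a further granzyme gene of that locus, is 24.2 kb away. Prf1 at chr10:61297833-61304680, Gzmm at chr10:79689020-79695261 and Nkg7 at chr7:43437073-43438249 are on the plus strand. All 6 are annotated as protein-coding.

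The promoter windows of 4 members are printed because these genes had different homes among the clusters: Gzma, Gzmb and Prf1 were highest in the NK-like cells, while Gzmk, next to Gzma in the genome, was highest in the T-like cells. Each window runs from 250 bases before to 50 bases after the RefSeq start site on GRCm38.p6 and is given 5′ to 3′ on the gene's strand. Capitals mark matches to the T-box half-site letters AGGTGT, which T-bet and Eomes can bind, and to the RUNX letters TGTGGT, searched on both strands, so that a match on the other strand reads ACACCT or ACCACA. The motifs were chosen after the windows had been seen.
Gzma, chr13:113100932-113101231, minus strand: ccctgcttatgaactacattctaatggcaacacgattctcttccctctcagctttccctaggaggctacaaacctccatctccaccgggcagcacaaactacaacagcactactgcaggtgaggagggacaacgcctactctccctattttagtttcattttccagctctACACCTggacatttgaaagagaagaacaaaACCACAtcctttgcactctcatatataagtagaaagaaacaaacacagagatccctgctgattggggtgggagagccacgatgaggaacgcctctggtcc
Gzmk, chr13:113180916-113181215, minus strand: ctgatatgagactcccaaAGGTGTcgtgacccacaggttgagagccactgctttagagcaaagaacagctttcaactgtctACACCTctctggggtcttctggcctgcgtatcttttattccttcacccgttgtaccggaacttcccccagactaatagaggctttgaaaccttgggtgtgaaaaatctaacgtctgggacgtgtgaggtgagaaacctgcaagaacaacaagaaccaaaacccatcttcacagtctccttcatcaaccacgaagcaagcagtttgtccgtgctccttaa
Gzmb, chr14:56262285-56262584, minus strand: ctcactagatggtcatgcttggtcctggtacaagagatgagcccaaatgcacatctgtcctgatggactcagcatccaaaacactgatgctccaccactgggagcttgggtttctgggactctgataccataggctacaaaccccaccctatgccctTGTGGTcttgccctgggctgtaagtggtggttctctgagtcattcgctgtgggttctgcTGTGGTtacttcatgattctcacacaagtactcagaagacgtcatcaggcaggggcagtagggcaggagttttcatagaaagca
Prf1, chr10:61297586-61297885, plus strand: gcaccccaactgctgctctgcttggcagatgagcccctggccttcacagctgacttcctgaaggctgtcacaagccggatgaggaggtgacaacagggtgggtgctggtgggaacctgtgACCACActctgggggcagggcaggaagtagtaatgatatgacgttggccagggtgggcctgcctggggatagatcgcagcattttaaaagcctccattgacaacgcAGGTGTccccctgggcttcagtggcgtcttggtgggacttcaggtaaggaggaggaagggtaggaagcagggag
The T-box letters occurred in the windows of Gzma (at -80 from the start site), Gzmk (-232 and -169), Prf1 (-24) and Nkg7 (-14), and in 13.7% of all 32851 RefSeq windows of 300 bases. The RUNX letters occurred in the windows of Gzma (-50), Gzmb (-93 and -34), Prf1 (-130), Nkg7 (-83) and Gzmm (-247), and in 16.8% of all windows. The AP-1 letters TGANTCA were found only in the Gzmb window among those of the 6 members (-58) and in 7.81% of all windows. The STAT letters TTCNNNGAA were searched too. They occurred in the windows of Gzmb (37, past the start site), Gzmm (-86) and Nkg7 (-220), and in 8.30% of all windows. A match is a description of the letters, and these data hold no measure of binding. The RefSeq start used for Gzmk is 44943 bases from the end of the longer GENCODE gene model, and the Gzmb start is 74 bases from it.

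Levels are unique molecular identifiers (UMIs, counted transcripts) summed over the cells of a deposited cluster in 1 library, per 1000000 UMIs of that sum (CPM). Of 4545 chow cells and 5614 ketogenic cells, 4458 and 5559 carried 1 of 13 deposited clusters. The other 142 had over 5% mitochondrial UMIs. The cluster sums held between 189870 and 5078765 UMIs. With 1 library for each diet there is no replicate, so no test between diets is possible, and square brackets give 95% intervals for counting error only (exact Poisson for a level, exact conditional for a ratio). The authors clustered the cells on expression that may have included these genes, so differences between clusters are descriptions. The clusters were named from markers that include none of the 6 genes: cluster 1 is NK-like (7 of 7 NK markers raised, among them Ncr1, Klrb1c and Eomes), cluster 2 T-like (Cd3e, Trac, Cd8b1 and Cd4), cluster 7 Treg-like (6 of 6 markers, with Foxp3) and cluster 11 gamma-delta T-like (8 of 8). Cluster 4 stays unnamed because it had both T cell receptor genes (Cd3d, Trac, Trdc) and NK receptor genes (Klra1, Klra7, Klrb1c), and cluster 10 is called cycling from Mki67 and Top2a. Markers of group 2 innate lymphoid cells (ILC2) summed to 3770 and 3394 CPM in cluster 7 on chow and the ketogenic diet. In the ILC2-like cluster they summed to 4704 and 4406 CPM. A Foxp3 UMI was seen in 30% and 30.5% of the cells of cluster 7, so its levels are not those of Treg alone.

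Gzma was concentrated in the NK-like cells. Of its UMIs in clustered cells they held 81.2% on chow and 83.6% on the ketogenic diet, at 2768 CPM [2692 to 2846] and 2499 CPM [2448 to 2551]. The next clusters were over 10-fold lower: Treg-like at 187 CPM on chow and 230 CPM on the ketogenic diet, cycling at 124 and 211 CPM, and cluster 4 at 95.6 and 203 CPM. The intervals of clusters 4, 7 and 10 overlapped one another on the ketogenic diet. In the T-like cluster the level was 77.2 CPM on chow and 35.2 CPM on the ketogenic diet. A single chow cell carried 25 of those 48 chow UMIs. In the cDC1-like dendritic cells, which are not known to make granzymes, it was 38.9 and 33.6 CPM. The ILC2-like cells, group 2 innate lymphoid cells, were at 40.8 and 30.3 CPM, close to that background.

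Gzmb was shared more widely among lymphocytes. Of its UMIs in clustered cells the NK-like cells held 67.5% on chow and 55.3% on the ketogenic diet, at 382 CPM [354 to 411] and 524 CPM [501 to 548]. Cluster 4 was at 111 CPM [88.9 to 138] on chow and 314 CPM [290.0 to 340.4] on the ketogenic diet, and the Treg-like cluster at 179 CPM [143 to 220] and 234 CPM [209 to 261]. The order of those clusters was therefore Treg-like above cluster 4 on chow and the reverse on the ketogenic diet, with intervals that did not overlap in either library. The chow order rested on few cells: 5 Treg-like cells held 53.9% of the 89 chow UMIs, and without the chow cells shallower than any ketogenic cell the chow levels were 93.2 CPM (38 UMIs) in the Treg-like cells and 116 CPM (75 UMIs) in cluster 4, which turned the order. On the ketogenic diet cluster 4 stayed above, at 314 and 234 CPM, since no cell there was that shallow. Then came the T-like cells at 20.9 and 69.6 CPM and the cycling cells at 13.1 and 102 CPM. The gamma-delta T-like cells had 3 UMIs on chow and 38 on the ketogenic diet (55.7 CPM [39.4 to 76.4]), of which a single cell held 36.8%. The cDC1-like background was 4.92 and 11.5 CPM, and a single cell held 14 of its 40 ketogenic UMIs.

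Prf1 and Nkg7 were also highest in the NK-like cells, but with different reach. Prf1 was at 41.7 CPM [32.8 to 52.3] on chow (75 UMIs) and 51.7 CPM [44.6 to 59.7] on the ketogenic diet (186 UMIs). Those cells held 79.8% and 73.8% of the Prf1 UMIs in clustered cells. Cluster 4 followed at 7.96 CPM (6 UMIs) and 13.4 CPM (26 UMIs). Nkg7 was at 4046 CPM [3954 to 4140] and 4191 CPM [4125 to 4259] in the NK-like cells, at 2329 and 2409 CPM in cluster 4, at 1311 and 1240 CPM in the T-like cells, at 462 and 633 CPM in the Treg-like cells and at 250 and 691 CPM in the cycling cells. The first 3 kept this order in both libraries with intervals apart. The cDC1-like background of Nkg7 was 77.9 and 93.9 CPM.

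Gzmk and Gzmm were rare and led in the T-like cells. Gzmk had 19 UMIs in the clustered cells of the chow library and 188 in those of the ketogenic library. The T-like cells held 10 of the chow UMIs (16.1 CPM [7.71 to 29.6]) and 104 of the ketogenic UMIs (37.3 CPM [30.5 to 45.2]). In the ketogenic library the cycling cells held a further 39 UMIs (24.5 CPM [17.4 to 33.4]), against 2 on chow. The NK-like cells had 2 and 11 Gzmk UMIs, 6 of the 11 in a single cell. Gzmm was at 30.6 CPM [18.4 to 47.7] and 27.6 CPM [21.8 to 34.5] in the T-like cells, 21.2 CPM [12.1 to 34.5] and 8.25 CPM [4.71 to 13.4] in cluster 4, and 13.3 CPM [8.55 to 19.9] and 14.7 CPM [11 to 19.3] in the NK-like cells. On chow those 3 levels overlapped within their intervals.

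**Figure D1:**
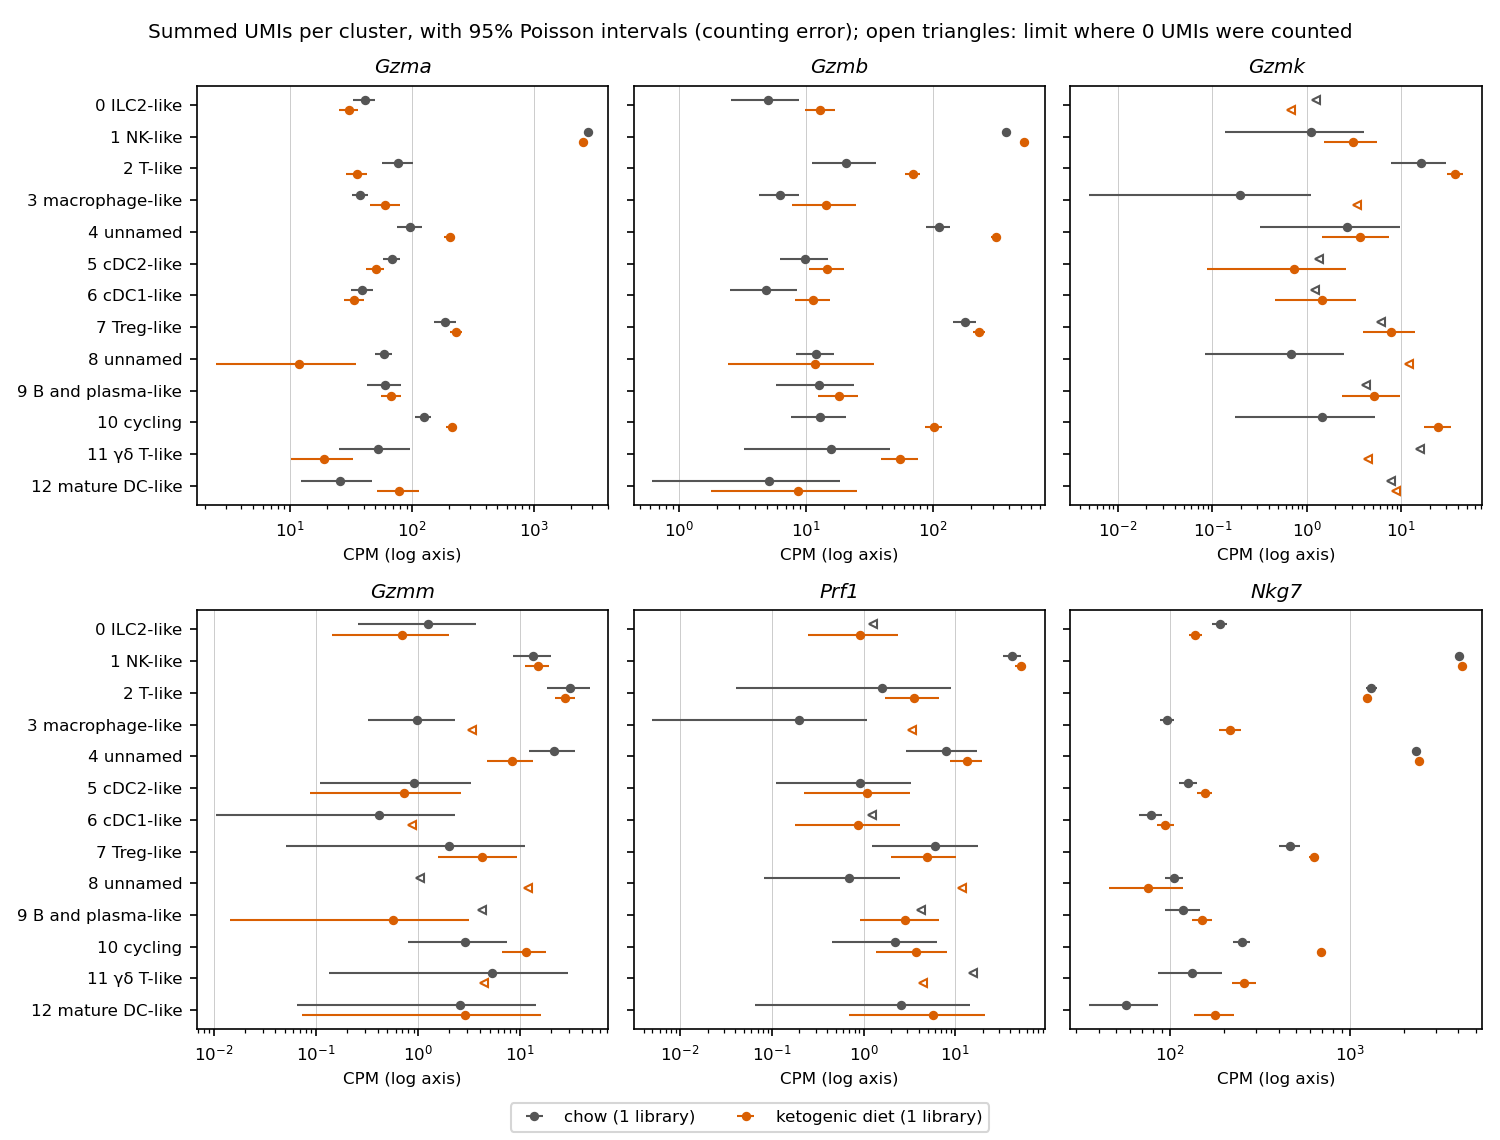
Level of each gene in each deposited cluster, in CPM on a log axis, for the chow and the ketogenic library, with 95% Poisson intervals for counting error; open triangles mark the limit set by a count of 0 (3 counts). Gzma, Gzmb, Prf1 and Nkg7 peak in the NK-like cells (2768, 382, 41.7 and 4046 CPM on chow), Gzmk and Gzmm in the T-like cells.

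**Figure D2:**
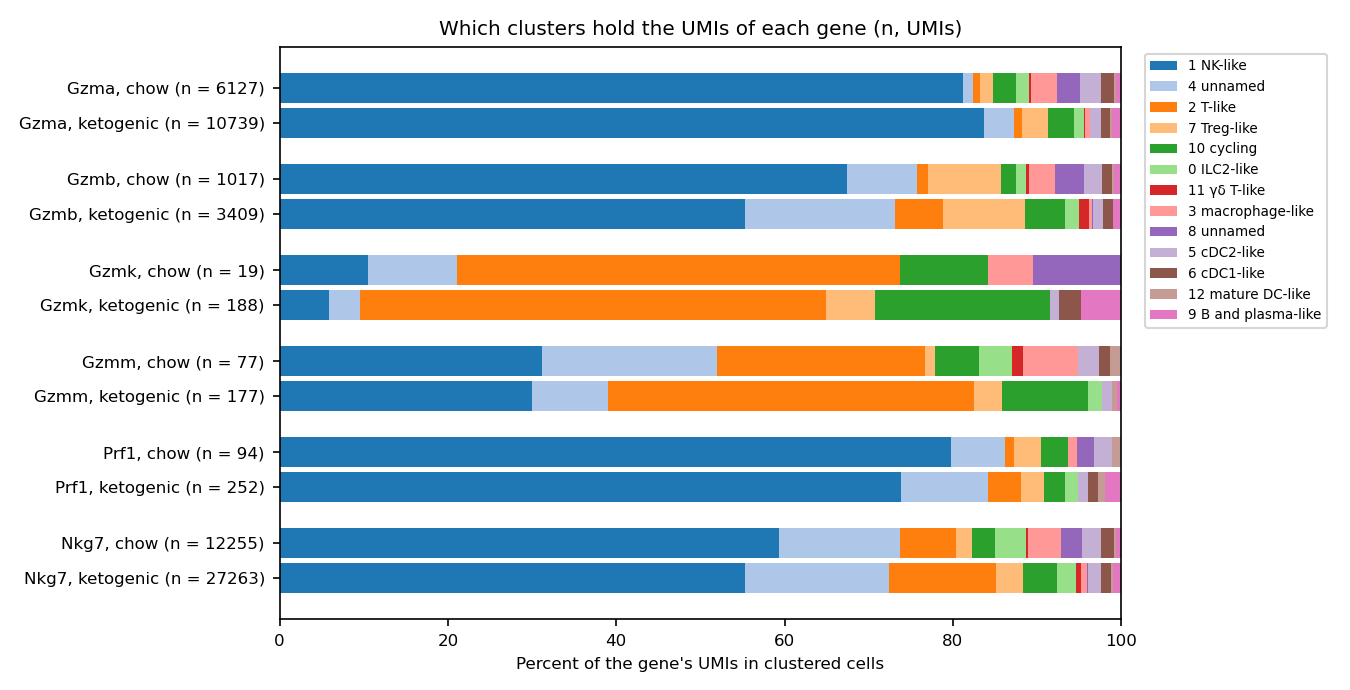
Percent of each gene's UMIs that lay in each cluster, with the number of UMIs in clustered cells. The NK-like cells hold 81.2% and 83.6% of Gzma UMIs, and the share of Gzmb UMIs in cluster 4 is 8.26% on chow and 17.9% on the ketogenic diet.

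To count cells at 1 depth, each cell was thinned to 1000 UMIs; the count of cells is the expected one, rounded to a whole cell. After thinning, 95.9% of the NK-like cells on chow and 96.0% on the ketogenic diet had an Nkg7 UMI, against 6.84% and 7.89% of the cDC1-like cells, whose median depths of 7906 and 9922 UMIs exceeded the 2297 and 3147 UMIs of the NK-like cells. Gzma was seen in 53.2% [49.5 to 56.9] and 54.5% [51.5 to 57.5] of the NK-like cells (60.5% and 63.7% without thinning), against 3.26% and 2.82% in the cDC1-like cells. Gzmb was seen in 22.1% [19.1 to 25.3] and 27.9% [25.2 to 30.7] of the NK-like cells (34.5% and 50.6% without thinning), in 8.92% [5.80 to 13] and 15.7% [12.7 to 19.2] of cluster 4, and in 10.6% [6.31 to 16.5] and 13.1% [9.65 to 17.3] of the Treg-like cells. The cDC1-like share for Gzmb was 0.326% and 0.845%. Prf1 was seen in 4.28% and 5.18% of the NK-like cells (9.12% and 15.1% without thinning). Its expected count after thinning rounded to 0 of the cDC1-like cells in both libraries, and without thinning 0 of 307 chow cells and 3 of 355 ketogenic cells (0.845%) had a UMI. Square brackets here are exact binomial intervals. In 10 pairs of gene and cluster the share was above the cDC1-like share in both libraries with intervals apart: Gzma and Prf1 in the NK-like cells, Gzmb in the NK-like, Treg-like and cluster 4 cells, and Nkg7 in those and in the T-like and cycling cells.

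**Figure D3:**
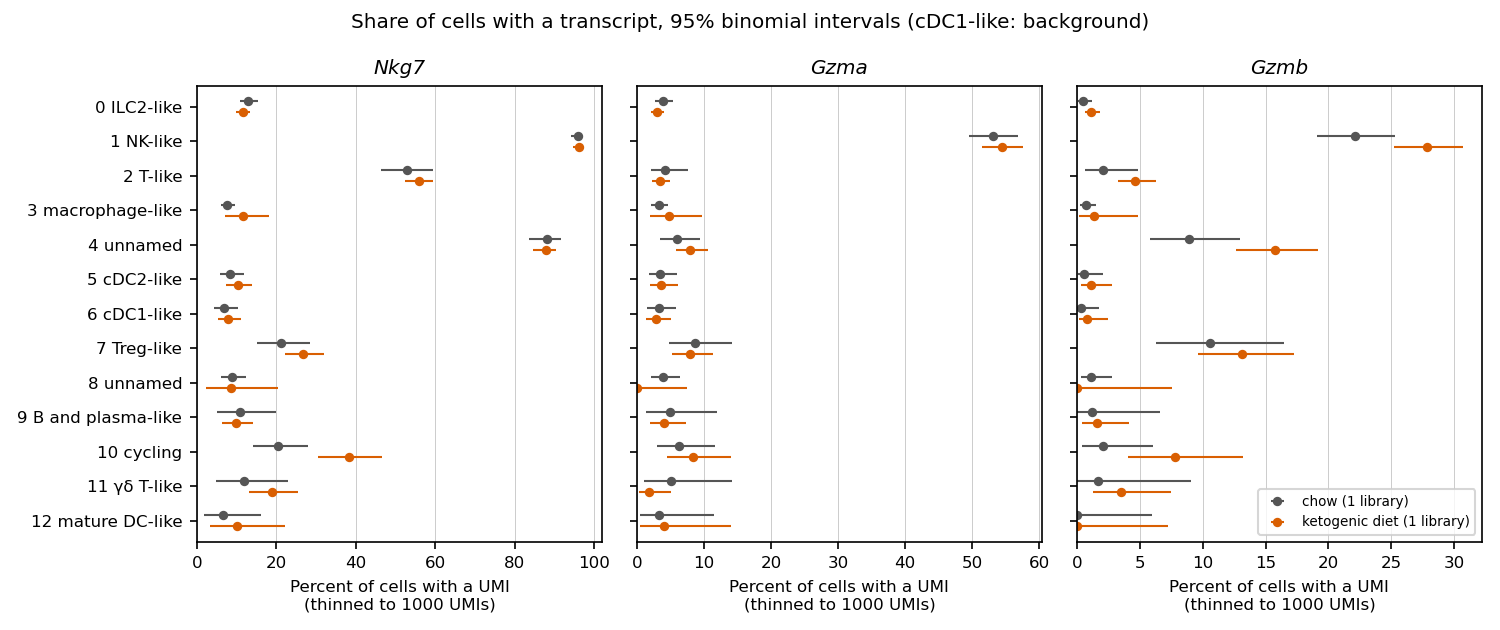
Percent of cells with at least 1 UMI of Nkg7, Gzma or Gzmb after thinning each cell to 1000 UMIs, by cluster and library, with exact binomial 95% intervals. Nkg7 marks 95.9% and 96.0% of NK-like cells and 88.1% and 87.8% of cluster 4, whereas outside the NK-like cells Gzma is seen in at most 8.75% of a cluster.

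Over all clustered cells of a library all 6 genes were higher on the ketogenic diet, but the mix of cells differed too. The library level of Gzmb was 47.6 CPM on chow and 132 CPM on the ketogenic diet (ratio 2.77), that of Gzmk 0.890 and 7.27 CPM (8.17), Prf1 4.40 and 9.74 CPM (2.21), Gzmm 3.61 and 6.84 CPM (1.90), Nkg7 574 and 1054 CPM (1.84) and Gzma 287 and 415 CPM (1.45). Between the libraries the T-like share of clustered cells was 5.29% against 14.8%, the NK-like share 16.2% against 19.1%, and the macrophage-like share 19.3% against 2.61%. With every cluster given its mean share of cells over both libraries, the ratios were 2.83 for Gzmk, 1.61 for Gzmb, 1.32 for Prf1, 1.05 for Nkg7, 0.922 for Gzma and 0.866 for Gzmm. Gzma and Gzmm thus went from above 1 to below 1.

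Within the NK-like cells, Gzmb was higher and Gzma slightly lower on the ketogenic diet, both by less than 1.5-fold. The ratio of ketogenic to chow CPM was 1.37 [1.26 to 1.5] for Gzmb, 1.24 [0.944 to 1.64] for Prf1, 1.10 [0.670 to 1.87] for Gzmm, 1.04 [1.01 to 1.07] for Nkg7 and 0.903 [0.872 to 0.935] for Gzma. A gene was called past the fold at 1.5-fold or more with an interval that excludes 1 and at least 50 UMIs over both libraries. By that rule 0 of the 5 members that reach 50 UMIs were called in the NK-like cells, where 5.8% of 7040 genes were called higher and 6.01% lower. In the chow library 571 clustered cells were shallower than the shallowest ketogenic cell. Without them the Gzmb ratio passed 1.5-fold (log2 0.59 against 0.46) and Gzma had a log2 ratio of 0.06 in place of -0.15, so the direction of Gzma turned with the depth of the cells kept. NK cells chosen by transcripts alone (Ncr1 or Klrb1c and no Cd3, 734 and 951 cells) gave ratios of 1.40 [1.26 to 1.55] for Gzmb, 1.62 [1.21 to 2.20] for Prf1 and 1.21 [1.16 to 1.25] for Gzma. Of those cells 73.3% on chow and 81.3% on the ketogenic diet lay in the NK-like cluster, and 16.3% and 7.26% in myeloid clusters.

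Outside the NK-like cells several diet ratios were larger. Over all clusters 36 pairs of gene and cluster reached 50 UMIs, of which 13 were higher on the ketogenic diet and 2 lower. Over the 66224 pairs of any gene with a cluster that reached 50 UMIs, 8.72% were called higher and 5.5% lower. In cluster 4, Gzmb was at 111 CPM (84 UMIs) on chow and 314 CPM (610 UMIs) on the ketogenic diet, a ratio of 2.82 [2.24 to 3.59]. Gzma was at 95.6 CPM (72 UMIs) and 203 CPM (393 UMIs) there, a ratio of 2.12 [1.65 to 2.76], and Nkg7 had a ratio of 1.03 [0.979 to 1.09]. The background in cluster 4 was 6.2% of 4888 genes called higher and 4.36% lower. NK marker genes summed to 1387 and 1671 CPM in cluster 4, CD8 T markers to 3126 and 3774 CPM and CD4 T markers to 3251 and 3809 CPM. The CD8 T and CD4 T lists share Cd3e, Cd3d, Trac and Trbc2, so their sums do not tell these cells apart. The part of these markers in the granzyme ratios was not tested. By the mean of per-cell CPM the Gzma log2 ratio there was 0.59, just past 1.5-fold, against 1.08 from the sums.

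In the T-like cells Gzmb was at 20.9 CPM (13 UMIs) and 69.6 CPM (194 UMIs), a ratio of 3.33 [1.90 to 6.36], and Gzmk had a ratio of 2.32 [1.21 to 4.98]. Nkg7 and Gzmm had ratios of 0.946 [0.876 to 1.02] and 0.904 [0.541 to 1.58]. Gzma was called lower at 0.455 [0.319 to 0.657], but without the cell with most Gzma UMIs in each library its log2 ratio was -0.18, and the call was lost. In this cluster 7.97% of 5708 genes were called higher and 4.26% lower. CD8 T markers summed to 3541 and 4746 CPM and CD4 T markers to 3745 and 4857 CPM in the T-like cells, and their part in the ratios was not tested.

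The cycling cells had the largest ratio of the 36 pairs: Gzmb was at 13.1 CPM (18 UMIs) and 102 CPM (163 UMIs), a ratio of 7.83 [4.80 to 13.5]. Nkg7 had a ratio of 2.77 [2.45 to 3.13] and Gzma 1.70 [1.41 to 2.05] there, which did not pass 1.5-fold as a mean of per-cell CPM (log2 0.50). Background calls were more frequent in this cluster than in most, at 12.7% of 5508 genes higher and 9.02% lower. The makeup of the cycling cluster differed between the libraries. CD8 T markers summed to 352 CPM on chow and 1320 CPM on the ketogenic diet. CD4 T markers summed to 372 and 1350 CPM, with Cd3e, Cd3d, Trac and Trbc2 in both lists. NK markers summed to 109 and 413 CPM, and macrophage markers to 391 and 131 CPM. Their part in these ratios was not tested.

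In the Treg-like cells none of the 3 members with 50 UMIs was called (background 8.34% higher and 4.68% lower of 4018 genes): Gzmb had a ratio of 1.31 [1.03 to 1.67], Nkg7 1.37 [1.18 to 1.59] and Gzma 1.23 [0.975 to 1.57]. That count depended on which cells were kept. Without the shallow chow cells, which held 51 of the 89 chow Gzmb UMIs, Gzmb was called higher, with a log2 ratio of 1.31 against 0.38 from all cells. Without the 3 cells with most UMIs of the gene in each library, Gzmb (log2 0.73) and Nkg7 (log2 0.61) were called higher.

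The remaining calls were in clusters with low levels. Gzmb was higher in the ILC2-like cells (5.05 and 13.1 CPM; background 7.24% higher of 7338 genes) and in the cDC1-like cells (background 7.01% of 6361 genes). Nkg7 was higher in the gamma-delta T-like cells, at 132 CPM [85.2 to 194] and 258 CPM [221 to 299] (background 6.04% of 2269 genes). The Trdc+ share of that cluster was 76.3% on chow and 56.5% on the ketogenic diet, and in the ketogenic library Nkg7 was lower in the Trdc+ cells (183 CPM) than in the others (342 CPM). Within each class the interval of the diet ratio included 1, at 1.59 [0.911 to 2.94] in the Trdc+ cells and 1.93 [0.980 to 4.33] in the others. Without the top cell of each library the ratio was 1.71 [0.928 to 3.41] in the Trdc+ cells and 2.82 [1.17 to 8.89] in the others. The latter interval excluded 1, from 5 and 95 UMIs. A single chow cell had held 44.4% of the 9 chow UMIs of those others, and its removal raised that ratio. Nkg7 was also called higher in the macrophage-like cells (ratio 2.26; background 8.29% of 6840 genes) and in the mature DC-like cells (ratio 3.12, 83 UMIs in all; background 8.8% of 1466 genes). Gzma was higher in the macrophage-like cells (ratio 1.61) and lower in cluster 8 (170 UMIs and 3 UMIs, a ratio of 0.204 [0.0416 to 0.606]; background 4.9% lower of 4981 genes). NK markers moved with Nkg7 in the myeloid clusters, from 52.6 to 187 CPM in the macrophage-like cells and from 51.3 to 176 CPM in the mature DC-like cells, and were at 31.6 and 48.4 CPM in the gamma-delta T-like cells and at 48.1 and 27.8 CPM in cluster 8. T cell markers moved with Gzmb in the cDC1-like cells, where CD4 T markers summed to 50.8 and 170 CPM and CD8 T markers to 53.7 and 168 CPM. The part of these markers in the calls was not tested. Gzmb was at 10.6% and 9.92% of its library level in the ILC2-like cells and at 10.3% and 8.72% in the cDC1-like cells, on chow and the ketogenic diet, so its share of the library level was not higher on the ketogenic diet in either. Without the cell with most UMIs of the gene, Gzma in the macrophage-like cells fell short of 1.5-fold (log2 0.56 against 0.69), and Gzmb in the cDC1-like cells had too few UMIs to be called (log2 0.69 against 1.18). The cDC1-like Gzmb log2 ratio was 0.096 without cells above the 95th percentile of UMIs and 0.44 without the 3 top cells. Both again had too few UMIs to be called. Gzma in the macrophage-like cells also missed 1.5-fold by the mean of per-cell CPM (log2 0.49), and Gzmb in the ILC2-like cells had too few UMIs without the 3 top cells (log2 1.21). Nkg7 lost its call in the macrophage-like cells without those above the 95th percentile of UMIs (log2 0.49), and in the mature DC-like cells without the 3 top cells (log2 0.57). No member was called in the cDC2-like cells (background 7.01% higher and 5.36% lower) or the B and plasma-like cells (34% and 2.65%). Lower calls among all genes were 6.26% in the ILC2-like, 6.13% in the macrophage-like, 4.81% in the cDC1-like, 4.5% in the gamma-delta T-like and 8.05% in the mature DC-like cells.

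**Figure D4:**
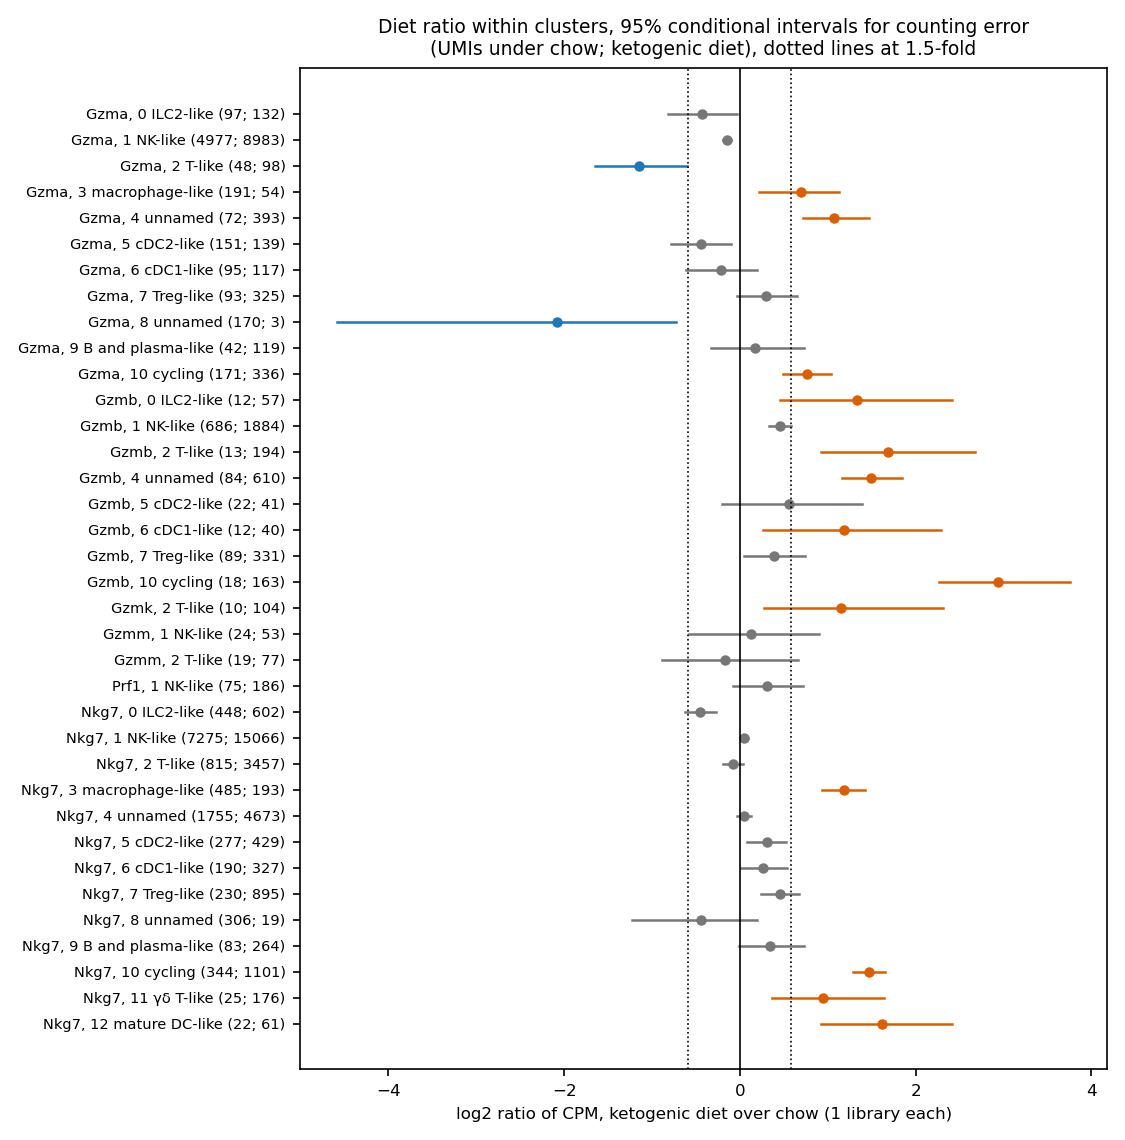
Log2 of the ketogenic-to-chow CPM ratio for the 36 pairs of gene and cluster with at least 50 UMIs, with exact conditional 95% intervals for counting error; orange and blue mark the 13 pairs higher and the 2 lower at 1.5-fold. The NK-like pairs all lie inside 1.5-fold, and Gzmb in the cycling cells (7.83) is farthest to the right.

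Cells were next split by transcripts that are not granule genes, beginning with the NK-like cells and the Ly49 inhibitory and activating receptors (Klra genes). In every such split a cell without a UMI of the marker may still carry its transcript. The classes without a marker may therefore hold cells of the other class. Cells with a Klra UMI made up 74.4% of the NK-like cells on chow and 79.8% on the ketogenic diet. Gzma was at 3596 CPM [3494 to 3700] in the Ly49+ cells and 568 CPM [503 to 638] in those without on chow, and at 3046 CPM [2982 to 3110] and 398 CPM [353 to 446] on the ketogenic diet. Those differences were 6.33-fold [5.61 to 7.17] and 7.66-fold [6.82 to 8.63]. Gzmb differed less, by 3.48-fold [2.70 to 4.54] and 3.40-fold [2.85 to 4.08], Prf1 by 2.45-fold [1.25 to 5.34] and 2.43-fold [1.49 to 4.2], and Nkg7 by 1.49-fold [1.40 to 1.57] and 1.56-fold [1.49 to 1.64]. Median depth was 2253 and 2522 UMIs in the Ly49+ and other cells on chow, so the Ly49+ cells were not the deeper ones. Within Ly49+ cells the diet ratio was 0.847 [0.817 to 0.878] for Gzma and 1.29 [1.18 to 1.42] for Gzmb. In cells without Ly49 it was 0.700 [0.593 to 0.828] for Gzma and 1.32 [0.981 to 1.80] for Gzmb.

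Cluster 4 was split by Trdc, the constant gene of the T cell receptor delta chain. In the Trdc+ cells Gzma had 3 UMIs in 44 chow cells (25.4 CPM [5.24 to 74.3]) and 117 UMIs in 108 ketogenic cells (280 CPM [231 to 335]), a ratio of 11 [3.67 to 54.1]. Without the cell with most Gzma UMIs in each library 2 and 92 UMIs remained, a ratio of 13 [3.5 to 109]. The removal took a larger share of the UMIs on chow, which raises the ratio. The chow level was not above the cDC1-like background of Gzma on chow, 38.9 CPM, so both ratios have a denominator at background. Gzmb had 4 and 67 UMIs in the Trdc+ cells of cluster 4, a ratio of 4.73 [1.76 to 17.8]. In the cells without Trdc, Gzmb was at 126 CPM [99.8 to 157] and 357 CPM [327 to 388], a ratio of 2.83 [2.24 to 3.63], and Gzma had a ratio of 1.67 [1.28 to 2.21]. Gzmb was lower in the Trdc+ cells than in the others in both libraries, by ratios of 0.269 [0.0716 to 0.717] and 0.449 [0.343 to 0.579]. Gzma was lower in Trdc+ cells on chow (0.234 [0.0471 to 0.713], from 3 UMIs at the background level) and higher on the ketogenic diet (1.54 [1.23 to 1.92]). The gamma-delta T-like cells of cluster 11 had little of either gene: their Trdc+ cells held 6 and 7 Gzma UMIs, and 0 and 23 Gzmb UMIs, 14 of the 23 in a single cell.

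In the T-like cluster, cells with Cd8a or Cd8b1 and no Cd4 (46 on chow and 206 on the ketogenic diet) were set against cells with Cd4 only (56 and 212). On the ketogenic diet Gzmb was at 134 CPM [109 to 163] in the Cd8 cells and 18.5 CPM [10.1 to 31.0] in the Cd4 cells, a 7.26-fold difference [4.13 to 13.8]. Gzmm was at 87.7 CPM [67.8 to 112] and 7.92 CPM [2.91 to 17.2] and differed by 11.1-fold [4.82 to 31.3], Nkg7 by 2.20-fold [2.01 to 2.42] and Gzmk by 1.88-fold [1.19 to 3.03]. On chow the ratio of Cd8 to Cd4 cells was 2.6 [2.08 to 3.29] for Nkg7, but for Gzmb (5 and 2 UMIs) it was 2.42 [0.397 to 25.4] and for Gzmk (2 and 5 UMIs, 14.2 and 36.6 CPM) 0.388 [0.0369 to 2.37], the opposite direction to the ketogenic library with an interval that includes 1. On chow the Cd8 cells held 16 Gzmm UMIs (113 CPM [64.9 to 184]) and the Cd4 cells 0, which allows up to 22.0 CPM. The Cd8 cells held 5 Gzmb UMIs on chow (35.5 CPM [11.5 to 82.8]) and 101 on the ketogenic diet, a ratio of 3.78 [1.57 to 11.9]. A single chow cell held 3 of those 5 UMIs. Without the top cell of each library 2 and 90 UMIs remained, a ratio of 8.32 [2.24 to 69.8]. The Gzmk UMIs of the Cd8 cells were 2 and 56, a ratio of 5.25 [1.39 to 44.4]. Without the top cells 1 and 51 UMIs remained, a ratio of 9.36 [1.61 to 377]. For both genes the removal took a larger share of the UMIs on chow, which raises the ratio, so it is no check of the diet difference. In the same cells Gzmm had a ratio of 0.773 [0.443 to 1.43] and Nkg7 0.968 [0.852 to 1.10]. In the Cd4 cells Gzmk was at 36.6 CPM [11.9 to 85.4], from 5 UMIs of which 2 lay in a single cell, and 39.6 CPM [26.7 to 56.6].

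In the Treg-like cluster, cells with a Foxp3 UMI numbered 48 on chow and 100 on the ketogenic diet. Foxp3 is the lineage regulator of Treg. Median depth was 2118 and 3186 UMIs in the Foxp3+ cells and 2794 and 3613 UMIs in the others, so the split was not made at 1 depth. Gzmb in the Foxp3+ cells was at 213 CPM [136 to 316] on chow (24 UMIs) and 432 CPM [370 to 501] on the ketogenic diet (175 UMIs), a ratio of 2.03 [1.32 to 3.25]. Without the top cell of each library 16 and 145 UMIs remained (144 and 362 CPM), a ratio of 2.51 [1.5 to 4.51]. The removal took a larger share of the UMIs on chow, which raises the ratio, so it is no check of the diet difference. The levels of Gzmb in the other class follow. In the cells without Foxp3 it was at 169 CPM [130.2 to 215.0] and 155 CPM [131 to 181], a ratio of 0.916 [0.682 to 1.24]. Both ratios depended on the shallow chow cells. Without them the chow levels were 69.2 CPM (5 UMIs) in the Foxp3+ cells and 98.3 CPM (33 UMIs) in the others, and the ratios were 6.24 [2.62 to 19.5] and 1.57 [1.07 to 2.36], so the ratio in the cells without Foxp3 turned above 1. Between these classes Gzmb was higher in the Foxp3+ cells on the ketogenic diet, by 2.79-fold [2.24 to 3.49], while on chow the ratio was 1.26 [0.755 to 2.04], or 0.704 [0.214 to 1.81] without the shallow cells. Gzma was lower in the Foxp3+ cells in both libraries, at 26.6 against 234 CPM on chow and 148 against 263 CPM on the ketogenic diet, where a single cell held 65% of the Foxp3+ UMIs. Without the top cell of each class the ketogenic levels were 52.7 and 230 CPM. Nkg7 was also lower in the Foxp3+ cells, by ratios of 0.221 [0.119 to 0.379] and 0.462 [0.383 to 0.554].

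The cycling cells were split by Cd3e, Cd3d or Cd3g. Cells with a Cd3 UMI were 35.9% of the cluster on chow and 65.6% on the ketogenic diet. In these Cd3+ cells Gzmb had 4 UMIs on chow (8.23 CPM [2.24 to 21.1]) and 133 on the ketogenic diet (133 CPM [112 to 158]), a ratio of 16.2 [6.17 to 60.3]. A single cell held 33.8% of the latter, and without the top cell of each library the ratio was 14.3 [4.72 to 70.5]. Gzmk was counted only in the Cd3+ cells of this cluster, with 2 and 39 UMIs, against 0 in 91 and 0 in 53 cells without Cd3. Gzma in the Cd3+ cells had 19 and 187 UMIs, and a single ketogenic cell held 52.9% of the latter. Among cycling cells without Cd3, those with Ncr1 or Klrb1c (21 and 20 cells) had Gzma at 548 CPM [457 to 653] and 615 CPM [516 to 728], a ratio of 1.12 [0.873 to 1.44]. A single cell held 38.9% of those chow UMIs and another 51.9% of the ketogenic ones, and without them the levels were 341 and 306 CPM, a ratio of 0.895 [0.633 to 1.26].

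**Figure D5:**
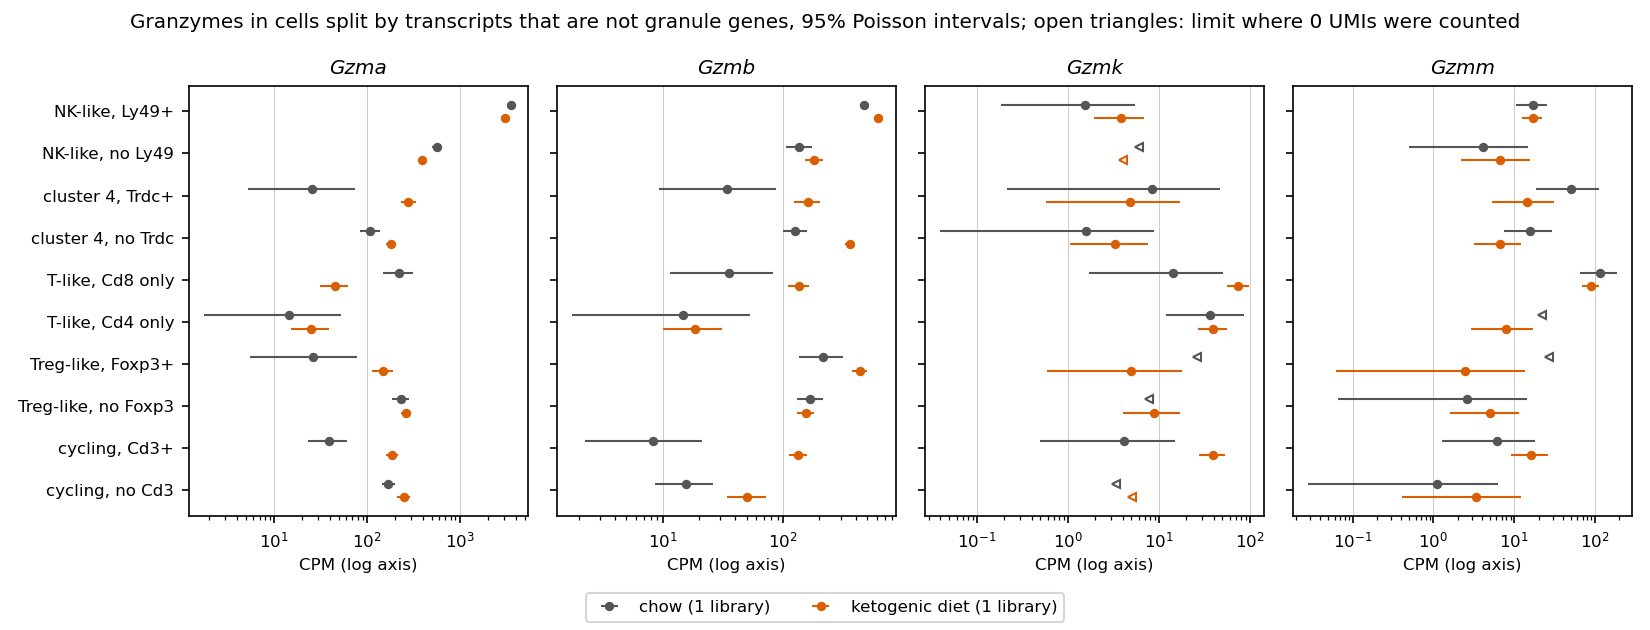
Levels of Gzma, Gzmb, Gzmk and Gzmm in cells split by other transcripts, in CPM on a log axis with 95% Poisson intervals, by library. Gzma separates NK-like cells with and without Ly49 (3596 and 568 CPM on chow), and Gzmb is at 35.5 and 134 CPM in the Cd8 T-like cells and at 213 and 432 CPM in the Foxp3+ cells on chow and the ketogenic diet.

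Granzymes A and B were found together in single NK-like cells more than the product of their shares. After thinning, 17.2% of those cells on chow had both, against a product of 11.7%, and 20.6% against 15.2% on the ketogenic diet. Of the NK-like cells with Gzmb, 78.1% and 74.0% also had Gzma. In cluster 4 the same share was 5.22% on chow, where 5.97% of all its cells had Gzma, and 11.6% on the ketogenic diet, where 7.97% had it. Both genes together were thus seen in 0.458% of the 269 cells of cluster 4 on chow, near the product of 0.524%, which is too few cells to give a direction. On the ketogenic diet the share was 1.81% against 1.25%. In the Treg-like cells 14.1% and 12.5% of those with Gzmb had Gzma, against 8.55% and 8.02% of all its cells. Without thinning, 8 of 48 Gzmb cells of cluster 4 on chow and 39 of 160 on the ketogenic diet had a Gzma UMI. Of all cells of cluster 4, 38 of 269 and 95 of 515 had one. In the T-like cells of the ketogenic library, Gzmb and Gzmk were both seen in 0.403% of cells after thinning, against a product of 0.144%. Of the NK-like cells with Prf1, 85.7% and 77.4% had Gzma and 37.7% and 39.9% had Gzmb.

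The genes with the most similar pattern were sought among 10361 genes over the 26 sums of cluster and library, by Pearson's r of log2(CPM + 10). The sums of a library share its depth and free RNA, so r is a description. Gzma was closest to the Ly49 genes Klra4 (r = 0.959) and Klra8 (0.956), then Adamts14 (0.930). Prf1 was closest to Itgad (0.946), Klra4 (0.939) and Eomes (0.939), a T-box factor of NK cells. Gzmb was closest to the chemokine gene Xcl1 (0.918), Gzmc (0.911) and the NK receptor gene Klrb1c (0.910), and Nkg7 to the death ligand gene Fasl (0.960), the granule-associated cathepsin gene Ctsw (0.960) and Sh2d1a (0.957), which encodes the adaptor SAP. Gzmk was closest to Cd8b1 (0.831), Slamf6 (0.821) and Gm14718 (0.802), and Gzmm to Ifng (0.890), Plcxd2 (0.889) and Aim1l (0.884).

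Other genes of the granule pathway were read from a list of 54: further granzymes, granule matrix and processing genes, release machinery, death ligands, regulators, and effector cytokines and chemokines. In the NK-like cells 45 reached 50 UMIs, 4 (8.89%) were higher and 5 (11.1%) lower on the ketogenic diet, against 5.8% and 6.01% of all genes there, and their median log2 ratio was 0.11 against 0.03 over all genes of that cluster. The 4 higher were Gzmc (18.4 and 39.5 CPM), Ctsd, which encodes cathepsin D (484 and 745 CPM), Serpinb9b, a relative of the granzyme B inhibitor (25.6 and 41.7 CPM), and Stx11, a syntaxin of granule fusion (14.5 and 26.4 CPM). The 5 lower were Lyst, the Chediak-Higashi gene of lysosome size (71.7 and 37.8 CPM), Arl8b, which moves lysosomes (36.2 and 23.1 CPM), Gnptab, which tags lysosomal enzymes (19.5 and 12 CPM), Zeb2, a factor of NK maturation (66.2 and 34.2 CPM), and Ccl4, a chemokine (2475 and 1646 CPM). Of the other granzymes, Gzmd, Gzme, Gzmg and Gzmn had 0 UMIs in both libraries and Gzmf had 1.

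In the T-like cells 10 of 39 list genes (25.6%) were higher, against 7.97% of all genes, and Il18r1, a chain of the interleukin-18 receptor, was lower (103 and 57.8 CPM; 4.26% of all genes lower), with a median log2 ratio of 0.33 against 0.09 over all genes. The 6 higher genes of granule content and release were Ctsw (132 and 217 CPM), Cst7, which encodes cystatin F (41.8 and 71.7 CPM), Lamp1 (77.2 and 130 CPM), Serpinb6b (64.3 and 105 CPM), Vamp7 (8 and 87 UMIs) and Stx11 (4 and 68 UMIs). Xcl1 was at 57.9 and 222 CPM there, and Tbx21, which encodes T-bet, at 38.6 and 65.3 CPM. In cluster 4, 3 of 39 (7.69%) were higher and 3 lower, near the 6.2% and 4.36% of all genes (median 0.12 against 0.06). The higher were Ctsw (373 and 603 CPM), Ap3b1, which encodes a subunit of the AP-3 adaptor (15.9 and 32.5 CPM), and the chemokine gene Ccl3 (17.3 and 32.5 CPM). The lower were Lyst (75.7 and 46.4 CPM), Zeb2 (43.8 and 16.5 CPM) and Il18r1 (153 and 79.9 CPM). In the Treg-like cells 5 of 34 (14.7%) were higher against 8.34% of all genes, among them Ctsw (58.2 and 127 CPM) and Cst7 (30.1 and 53.7 CPM). The others were Stxbp2, a syntaxin-binding protein of granule release (5 and 70 UMIs), Stat4 (46.2 and 77.1 CPM) and the chemokine gene Ccl5 (1094 and 1873 CPM). Zeb2 was the 1 lower (80.3 and 44.5 CPM, with 4.68% of all genes lower), and the median was 0.08 against 0.08. CD4 T markers summed to 2196 and 3080 CPM, CD8 T markers to 1865 and 2759 CPM and Treg markers to 1957 and 2093 CPM in the Treg-like cells. The part of these markers in the count was not tested. In the cycling cells, whose makeup differed between the libraries, 16 of 35 (45.7%) were higher against 12.7% of all genes, and Zeb2 was lower (79.8 and 31.4 CPM; 9.02% of all genes lower). The median was 0.25 against 0.07, with Ctsw at 27.6 and 144 CPM and the granzyme B inhibitor gene Serpinb9 at 39.2 and 87.2 CPM. Shares above those of all genes were also found outside the lymphocytes with most granule transcripts: 12 of 36 list genes (33.3%) were higher in the macrophage-like cells against 8.29% of all genes (median 0.37 against 0.04), 7 of 35 (20%) in the cDC2-like cells against 7.01%, and 7 of 39 (17.9%) in the ILC2-like cells against 7.24%. Some lymphocyte markers moved with these counts and others did not. In the macrophage-like cells CD4 T markers summed to 106 and 198 CPM, NK markers to 52.6 and 187 CPM and Treg markers to 51.4 and 40.3 CPM. In the cDC2-like cells CD4 T markers summed to 85.7 and 339 CPM and CD8 T markers to 89.3 and 351 CPM. NK markers were at 70.7 and 79.6 CPM there. In the ILC2-like cells CD4 T markers summed to 579 and 719 CPM. NK markers were at 50.5 and 49.8 CPM and Treg markers at 468 and 469 CPM there. Their part was not tested.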

How the data were processed

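Droplet single-cell RNA counts of adipose CD45+ cells were compared between 1 chow and 1 ketogenic library. The authors deposited raw UMI counts per gene and cell for each library and a table of clusters at resolution 0.5. The submitters' processing notes name Cell Ranger, Seurat and mm10, with no role or version. Ambient RNA or doublet removal is not given in the sources used here. No doublet caller was run, and an alternative left out cells above the 95th percentile of UMIs of their library. The libraries share 41 cell barcodes among 4545 and 5614.

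Counts were summed per cluster and library (21570910 UMIs on chow and 26041785 on the ketogenic diet in all cells). Ratios had 0.5 added to each count on the log2 scale. Levels of different genes were not compared. A cluster was named where at least 3 markers of a type were raised over the other clusters (2-fold, 20 CPM added) and its leading genes did not go against the name. All members were named in clusters with 50 UMIs, list genes where past the fold in the NK-like cells (others were chosen after their values were seen), and the 3 most similar genes among those with at least 100 UMIs. Thinned shares are hypergeometric expectations, rounded to whole cells except for pairs of genes. The members, lists and splits were chosen with earlier results of these data known. Of 28692 gene IDs, 28339 matched GENCODE M21, and all 6 members matched a RefSeq promoter. The ratio and interval code was tested on simulated counts. Python 3.11.15, numpy 2.4.6, pandas 2.3.3, scipy 1.17.1 and matplotlib 3.10.9 were used.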

Additional observations from a re-analysis of the deposited data

Results flagged for a closer look

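Gzma went in opposite directions in different clusters under the same diet contrast. Its log2 ratio of ketogenic to chow CPM was 1.08 in cluster 4, 0.76 in the cycling cells (cluster 10) and 0.69 in the macrophage-like cells (cluster 3), but -1.14 in the T-like cells (cluster 2) and -2.08 in cluster 8. Each direction comes from 1 library per diet, and the difference between clusters was not tested. In the T-like cells it rested on a single chow cell with 25 of 48 UMIs, and in cluster 8 on 3 ketogenic UMIs in 47 cells. The macrophage-like call was lost in 4 of 9 alternatives and the cycling call in 1. A single cell held 99 of the 336 ketogenic UMIs in the cycling cells.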

How the results depend on the processing

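No paired analysis was possible because each diet has 1 library, and no replicate could be left out. Of 329 values under alternatives for single pairs of gene and cluster, 295 moved by less than their counting interval, 31 moved by more and 3 reversed, where only pairs called in the report count as reversed. The reversed were Gzmb in the ILC2-like cells (log2 ratio -2.10) and in the cDC1-like cells (-1.33) with 10% free RNA subtracted, and Gzma in the T-like cells (0.0044) without the 3 cells with most of its UMIs. That subtraction sets a gene to 0 wherever it lies under 10% of its library level, as Gzmb did in the ketogenic ILC2-like and cDC1-like cells, so the direction it gives there is fixed by its construction and shows nothing of the diets. The count of pairs lower, 2 in the report, was 8 with free RNA subtracted, 4 with a minimum of 20 UMIs, which admits more pairs, and 1 without the top cell or without the 3 top cells of each gene. Among pairs not called in the report, 13 values from 9 pairs had the other sign, among them Gzma in the NK-like cells without the shallow chow cells (0.06 against -0.15), and 10 values from 9 pairs became calls, 6 of them with free RNA subtracted. The other 4 were Gzmb in the NK-like and Treg-like cells without the shallow chow cells, and Gzmb and Nkg7 in the Treg-like cells without the 3 top cells. In the NK-like cells, 1 member was higher rather than 0 without the chow cells shallower than any ketogenic cell (Gzmb) and 1 with cells chosen by Ncr1 or Klrb1c without Cd3 (Prf1). The count of pairs higher, 13 in the report, ranged from 10 to 18. Gzmb in the T-like, cycling and cluster 4 cells, Gzmk in the T-like cells, Nkg7 in the cycling and gamma-delta T-like cells, and Gzma in cluster 4 were past the fold under all 9 alternatives run on each pair. For Gzma in cluster 8, with 3 ketogenic UMIs in 3 cells, free RNA subtraction and removal of the 3 top cells both set the ketogenic level to 0, so they show nothing of its stability. The splits without the top cell or without shallow cells, the levels without shallow or top cells, the 3-cell removal and the NK split of cycling cells were added after seeing the data. Depth limits Gzmk, Gzmm and Prf1 most: outside the NK-like and T-like cells none of these reached 50 UMIs in a cluster.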

Other observations

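The 142 cells with over 5% mitochondrial UMIs that carry no deposited cluster (87 chow and 55 ketogenic) had granule transcripts too: Gzma at 679 and 450 CPM, Gzmb at 76.5 and 85.4 CPM and Nkg7 at 1053 and 985 CPM on chow and the ketogenic diet.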
